A study of Mus musculus with 2 samples.

Results

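The miR-378 family was described in the mouse adrenal gland as the 4 hairpin genes that carry its name, Mir378a, Mir378b, Mir378c and Mir378d, of 2202 microRNA genes counted. The rule that picks them uses the name and no measured value. Gm25301, a microRNA gene annotated across Mir378a on the other strand, was read as a control for strand. The study sequenced small RNA from the total RNA of adrenal gland tissue of female mice aged 2 months, of the F1 hybrid strain B6CASTF1/J. There was 1 group with 2 biological replicates, numbered as different females in the tissue labels, although both carry the same donor label. The labels name neither a treatment nor another group, so levels within the gland and the spread between the 2 samples are what the design allows. If the samples were not separate animals, that spread is technical.

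A microRNA hairpin is cut to a mature strand of about the length of a sequencing read, which pairs with messenger RNAs mainly through its seed, bases 2 to 8. Mir378a is known as an intronic passenger of Ppargc1b, the gene of the coactivator PGC-1β, which drives mitochondrial and fatty acid oxidation genes together with nuclear receptors. miR-378 strands are known from muscle, liver and fat, where they regulate mitochondrial metabolism and energy use. The adrenal gland has a cortex, where steroid synthesis starts in mitochondria, and a catecholamine-producing medulla. The source label names adrenal gland tissue without its parts.

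The mature strands of the 3 smaller members show how alike the family is, and where a read can tell its members apart. They are given 5′ to 3′ from RefSeq (GRCm38.p6, the assembly also called mm10), which held 3 of the 4 members, with the seed in capitals. No sequence of Mir378a is given.
miR-378b: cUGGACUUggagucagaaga
miR-378c: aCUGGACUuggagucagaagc
miR-378d: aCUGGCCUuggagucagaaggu
Counted from 1 at the 5′ end of miR-378c, miR-378d differs by A6C and C21G, and the first of these lies in the seed. miR-378b starts 1 base later than miR-378c, so its seed is read in another register. Counted from its own 5′ end, base 20 of miR-378b is A where miR-378c has C. Each of the 3 seeds belonged to 1 of the 1679 mature strands in the RefSeq table, which holds no Mir378a strand. By annotation no pair of these 3 strands therefore shares a seed. The hairpin of Mir378a also contains the seed bases of miR-378b and of miR-378c, but not those of miR-378d. It contains the first 20 of the 21 bases of miR-378c.

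The 4 hairpins were compared by the longest identical stretch of each pair. In the sequences below the mature strand is in capitals.
Mir378b hairpin: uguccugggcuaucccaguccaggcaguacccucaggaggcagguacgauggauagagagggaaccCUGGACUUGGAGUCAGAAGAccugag
Mir378c hairpin: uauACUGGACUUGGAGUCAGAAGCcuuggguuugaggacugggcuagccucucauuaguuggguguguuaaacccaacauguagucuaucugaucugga
Mir378d hairpin: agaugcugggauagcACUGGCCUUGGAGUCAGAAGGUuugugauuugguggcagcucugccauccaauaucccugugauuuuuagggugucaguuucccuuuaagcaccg
The mature strand lies at bases 67 to 86 of the 92-base hairpin of Mir378b, near its 3′ end. It lies at bases 4 to 24 of 99 in Mir378c and at bases 16 to 37 of 110 in Mir378d, near the 5′ end. The longest stretch that 2 hairpins of the family have in common was 20 bases for Mir378a and Mir378c, 19 bases for Mir378b with either of these, and 15 bases for Mir378a and Mir378d. No other pair shared more than 14 bases. Reads that fit several places were left in a row of their own, so a read that ends within such a stretch is missing from the counts of its gene.

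Mir378a held nearly all counts of the family and was among the most abundant microRNA genes of the gland. It had 138651 counts on its own strand in replicate 1 and 129232 in replicate 2, or 48825 and 56680.0 counts per 1000000 gene counts (CPM), 4.88% and 5.67% of the total. It ranked 4 of 2202 genes in each library. Mir378c had 83 and 139 counts (29.2 and 61.0 CPM), and Mir378d had 67 and 80 (23.6 and 35.1 CPM). Mir378b had 2 and 6 counts (0.704 and 2.63 CPM), near the 3 counts that a count of 0 allows in these libraries (1.06 and 1.32 CPM). Mir378a lay far above the other members in both libraries, and Mir378b lay below all of them.

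**Figure D1:**
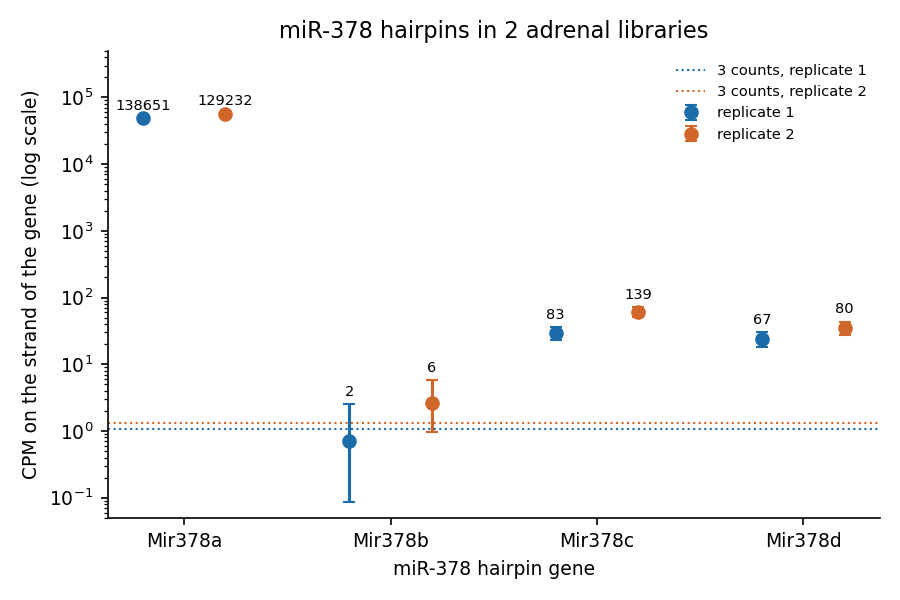
Level of each miR-378 hairpin in CPM (log scale) in replicate 1 (blue) and replicate 2 (orange), with exact 95% counting intervals, raw counts above the points and dotted lines at 3 counts. Mir378a sits at 48825 and 56680.0 CPM, Mir378c and Mir378d between 23.6 and 61.0 CPM, and Mir378b near the dotted lines.

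Mean levels were 52753 ± 5554 CPM for Mir378a, 45.1 ± 22.4 CPM for Mir378c, 29.3 ± 8.13 CPM for Mir378d and 1.67 ± 1.36 CPM for Mir378b (SD, n = 2). At 10 or more counts in both libraries, 3 of the 4 hairpins were detected, against 15.5% of all genes. The exception was Mir378b. Mir378a made up 99.9% of the family's counts in replicate 1 (exact Clopper-Pearson 95% interval 99.87 to 99.91) and 99.8% in replicate 2 (99.80 to 99.85), a mean of 99.86% ± 0.0455. It exceeded Mir378c 1670.5-fold and 930-fold, and Mir378d 2069-fold and 1615-fold, in replicates 1 and 2. The first 20 of the 21 bases of miR-378c also lie in Mir378a. Whether Mir378a reads with a misread base were counted to Mir378c was not tested. A read covers a whole mature strand, so counts were not divided by hairpin length. Per base of hairpin the distance was larger, at 740 and 859 CPM per base for Mir378a and 0.295 and 0.616 for Mir378c.

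The order of Mir378c and Mir378d was less certain. The ratio of Mir378c to Mir378d was 1.24 in replicate 1, with a 95% interval of 0.887 to 1.74, and 1.74 in replicate 2, with an interval of 1.31 to 2.32. Mir378c was thus above Mir378d in both libraries, but beyond counting error in replicate 2 alone, and their means differ by less than the SD of Mir378c.

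Families were also formed from all genes with the same number in their names, and with at least 3 genes and 1000 mean counts, 17 could be described, in a grouping set up after the counts were seen. The leading gene held a median of 85.0% of its family's counts. In 3 families it held over 99% in both libraries: Mir21a, which held all of them, Mir28a (99.94% and 99.93%) and Mir378a. The miR-181 family was at the other end, with 32.5% and 42.3% in Mir181d. Reads that fit several places are missing from all these shares.

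**Figure D2:**
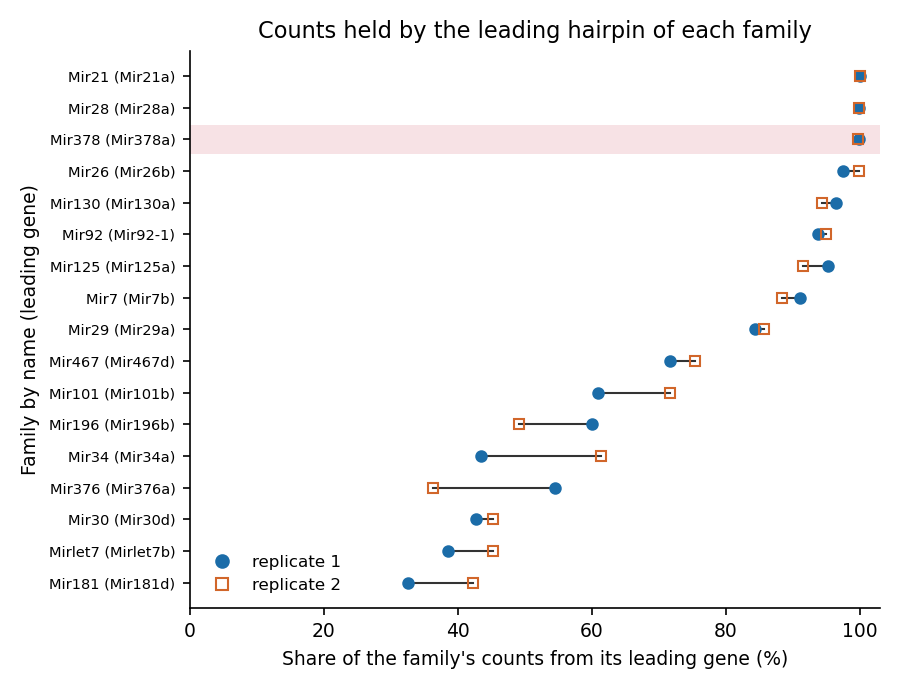
Share of each family's counts (x axis, percent) held by its leading gene, for the 17 families, with replicate 1 as filled circles and replicate 2 as open squares. The shaded miR-378 family lies at the upper end with 99.9% and 99.8%, and the lowest family, miR-181, has 32.5% and 42.3%.

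Position separates Mir378a from the other members. Mir378a (ENSMUSG00000105200.1) is on the minus strand of chromosome 18 at 61397835 to 61397900 (mm10), in the first intron of all 3 Ppargc1b transcripts that cover it and on their strand. It starts 2500 bases after the start of transcripts Ppargc1b-201 and Ppargc1b-203 and 2531 bases after that of Ppargc1b-202, in a gene of 102296 bases (61298136 to 61400431). Mir378b (ENSMUSG00000092985.1, chromosome 11, 88352773 to 88352864, plus strand) lies in intron 11 of Msi2, an RNA-binding protein gene, and Mir378c (ENSMUSG00000099036.1, chromosome 14, 46954830 to 46954928, minus strand) in an intron of Samd4. Both are on the strand opposite to the gene around them. Mir378d (ENSMUSG00000098756.1, chromosome 10, 126710282 to 126710391, minus strand) lies in no protein-coding gene, and the nearest one, Atp23, is 158036 bases away. Mir378a is thus the only one of the 4 that lies in a protein-coding gene on that gene's own strand. The Ppargc1b transcript itself was not measured here.

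**Figure D3:**
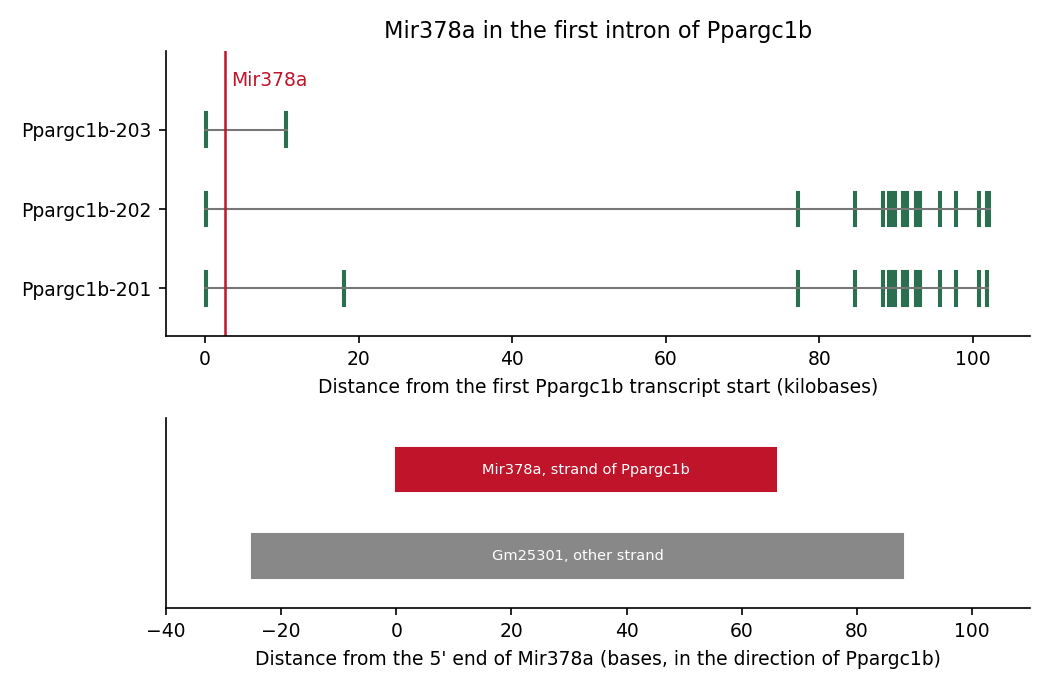
Upper panel: exons (green) of the 3 Ppargc1b transcripts by distance from the first transcript start (kilobases), with Mir378a as a red line in the first intron, 2531 bases from that start. Lower panel: Mir378a (66 bases) and Gm25301 (113 bases, other strand) by distance in bases from the 5′ end of Mir378a, which Gm25301 covers whole.

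Of all genes counted, 969 lie within a protein-coding gene on its strand, and 15.7% of them were detected, among them Mir378a. These 969 genes held 51.0% and 45.6% of the counts. Mir378a was the third most abundant of them in each library, after Mirlet7g and Mir22 in replicate 1 and after Mirlet7g and Mir126a in replicate 2, and held 9.57% and 12.4% of their counts. Genes in a protein-coding gene on the opposite strand, as Mir378b and Mir378c are, numbered 306, and 10.8% of them were detected, among them Mir378c. Of the 927 genes outside protein-coding genes 16.9% were detected, among them Mir378d.

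The folded hairpins also differed. With RNAfold, Mir378a had a minimum free energy of -38.5 kcal/mol over 66 bases, or -0.583 per base, and 95.6% of all counted genes were less stable per base. Mir378b reached -0.338, Mir378d -0.318 and Mir378c -0.273 kcal/mol per base, where 40.6%, 31.1% and 13.1% of genes were less stable. The median was -0.369 over all 2202 genes and -0.434 over the 342 detected genes. Mir378a, Mir378b and Mir378c each folded with 1 loop, and Mir378d with 3. The mature strand was paired at 15 of 20 bases in Mir378b, 15 of 21 in Mir378c and 13 of 22 in Mir378d. The annotated length enters these values, and Mir378a has the shortest hairpin of the 4.

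The control at the Mir378a locus shows what strand does to the family. Gm25301 (ENSMUSG00000093026.1, chromosome 18, 61397813 to 61397925, plus strand) covers the 66 bases of Mir378a with 25 further bases on one side and 22 on the other. It had 0 counts on its own strand in both libraries, so Mir378a was at least 46217-fold higher in replicate 1 and at least 43077-fold higher in replicate 2, against 3 counts in each library. On the opposite strand Gm25301 had 138651 and 129232 counts, the same numbers as Mir378a on its own strand. Without regard to strand both genes had 0 counts, because every such read fell in 2 genes. Mir378b, Mir378c and Mir378d overlap no such gene, had 0 counts on the opposite strand, and kept all their counts without strand. Without strand the family would therefore be read as 152 and 225 counts, all from its 3 minor members.

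Mir378a was a large part of the reads lost in this way. Reads in more than 1 gene without strand numbered 347555 in replicate 1 and 354974 in replicate 2, and Mir378a made up 39.9% and 36.4% of them. Mir126a, an endothelial microRNA opposite Mir126b, made up 35.3% and 38.2%. Mirlet7e held 10.5% and 6.56% and Mir191 6.15% and 3.91%. The erythroid Mir451a held 0.384% in replicate 1 and 8.71% in replicate 2, where it exceeded Mirlet7e. Mir378a led in replicate 1 and Mir126a in replicate 2.

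**Figure D4:**
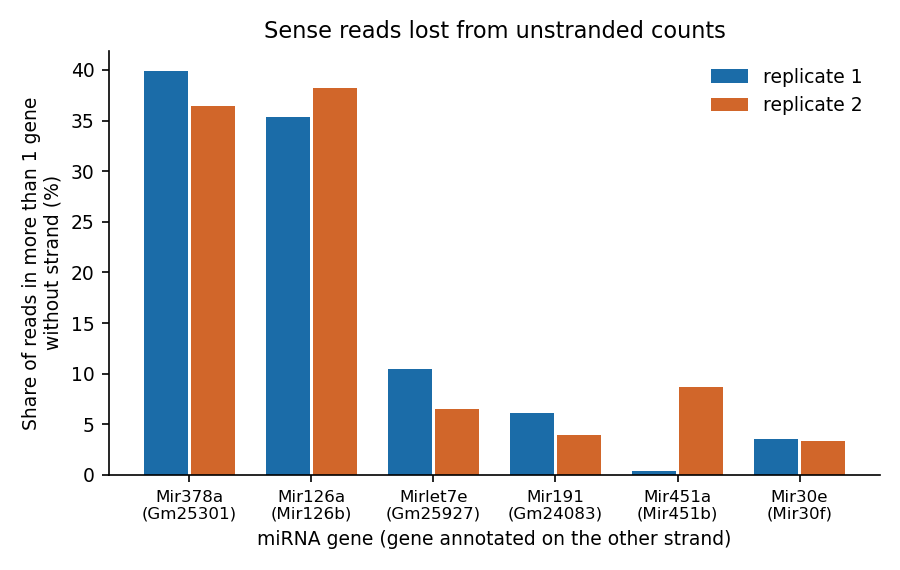
Share (percent) of the reads that fall in more than 1 gene without strand, for the 6 genes with the highest mean share and, in brackets, the gene on the other strand, in replicate 1 (blue) and replicate 2 (orange). Mir378a holds 39.9% and 36.4%, close to Mir126a, and the other 4 genes stay at or under 10.5%.

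The members were then compared between the 2 libraries, which shows how steady each was and says nothing of a condition. The exact two-sided binomial test on counts was used with Benjamini-Hochberg adjustment over the 369 genes that averaged 10 or more counts, and a call needed both an adjusted p under 0.05 and a 2-fold difference. Of the 3 members tested, Mir378c was called as higher in replicate 2, against 18.7% of all tested genes called in either direction and 8.67% called as higher in replicate 2. Among the 77 tested genes with a mean count of 50 to 200, near the depth of Mir378c, 22.1% were called, 11.7% as higher in replicate 2. A call of 1 member in 3 is no result about the family beside these shares. Without the 2-fold limit all 3 tested members passed as higher in replicate 2, as did 35.8% of the tested genes, and 62.6% passed in either direction. This did not hold for Mir378d under the other scalings, nor for Mir378a with all reads as the denominator.

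Mir378a differed little between the libraries. Its CPM was 1.16-fold higher in replicate 2 (95% counting interval 1.15 to 1.17), a log2 ratio of 0.22, and 27.1% of the tested genes had a smaller difference. Scaled to 1000000 of all reads, unassigned and unmapped reads included, it was at 14944 in replicate 1 and 14924 in replicate 2, a ratio of 0.999 with an adjusted p of 0.796 by the same exact test, so the direction of its difference depends on the denominator. Mir378c was 2.09-fold higher in replicate 2 (1.58 to 2.77, adjusted p = 1.9e-07 by the exact binomial test), but under the other scalings 1.79-fold to 1.93-fold and not called. Mir378d was 1.49-fold higher (1.06 to 2.09, adjusted p = 0.0333 by the exact binomial test) and did not reach 2-fold. With TMM, median-of-ratios and all-read scaling Mir378d was 1.37-fold, 1.33-fold and 1.28-fold higher, with adjusted p of 0.0890, 0.147 and 0.197 by the same exact test. Mir378b was too low to be tested, with a ratio of 3.74 (0.668 to 37.9).

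Set against Mir378a in the same library, which needs no scaling, Mir378c had 59.9 counts per 100000 counts of Mir378a in replicate 1, with a 95% interval of 47.7 to 74.2, and 108 in replicate 2, with an interval of 90.4 to 127. These counting intervals do not overlap. For Mir378d the values were 48.3 (37.4 to 61.4) and 61.9 (49.1 to 77.1), and for Mir378b 1.44 (0.175 to 5.21) and 4.64 (1.70 to 10.1), with intervals that overlap. They cover counting error only, so the Mir378c difference describes these 2 libraries.

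**Figure D5:**
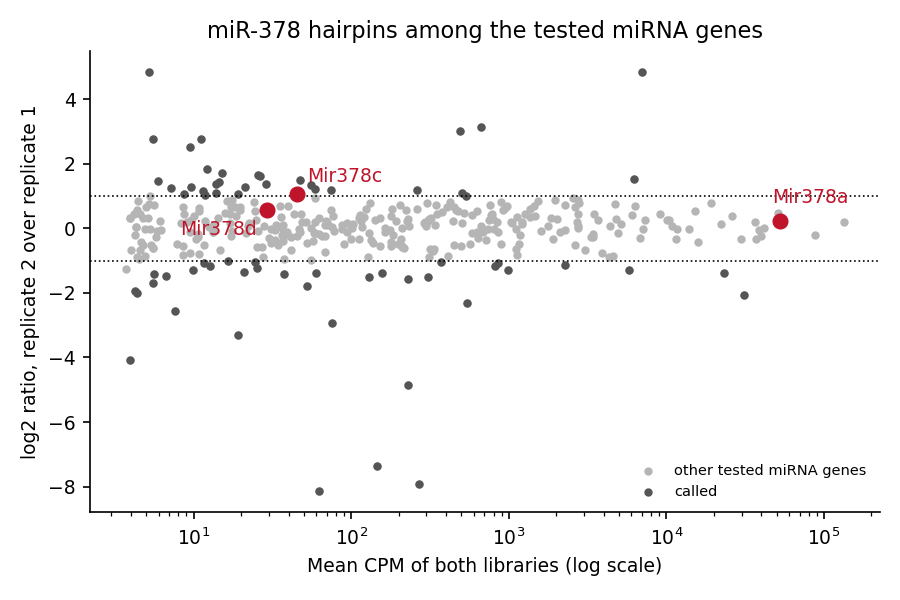
Log2 ratio of replicate 2 over replicate 1 against mean CPM (log scale) for 368 tested miRNA genes with counts in both libraries; 1 further tested gene had no count in a library. Called genes are dark and dotted lines mark 2-fold; Mir378a (0.22) lies near 0 at the right, Mir378c (1.06) just above the upper line and Mir378d (0.57) below it.

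Marker microRNAs of muscle and of red blood cells differed between the libraries. Muscle microRNAs, with Mir206, Mir499 and Mir208b as the most abundant, summed to 953 CPM in replicate 1 and 4.39 CPM in replicate 2. In both libraries 3 of the 9 were at 0 (Mir133a-1, Mir133a-2 and Mir133b). Reads that fit several places are missing from these counts, so the sum, the order and the zeros hold for the remaining reads only. Mir206 had 1517 and 5 counts, Mir499 818 and 4, and Mir208b 354 and 1. These 3 were the muscle genes tested, and all were called as higher in replicate 1. They reached the mean count needed through replicate 1 alone, so the calls add nothing to the counts. Of all tested genes, 10% were called as higher in replicate 1 and 8.67% as higher in replicate 2, which also stands beside the calls below. Erythroid microRNAs (Mir451a, Mir144 and Mir486) summed to 643 and 14488 CPM, and Mir451a and Mir144 were called as higher in replicate 2. The sum follows Mir451a, and Mir486 was not called, at 65.9 and 58.3 CPM. Reads that fit several places are missing from the erythroid counts too, Mir486 included. The 4 leukocyte genes, led by Mir150, Mir155 and Mir142, summed to 1331 and 1051 CPM, with 1 called as higher in replicate 1 (Mir223, named after its values were seen). The 6 brown fat genes summed to 3097 and 3849 CPM, with Mir193b and Mir365-1 called as higher in replicate 2. The other 4 were not called, among them Mir455, which held most of the sum at 2525 and 2899 CPM. With TMM and with median-of-ratios Mir365-1 alone was called, and with all reads neither gene was. The liver microRNA Mir122 was at 3721 and 2358 CPM. Mir378a was 1.16-fold higher in replicate 2 by CPM, with a ratio of 0.999 when all reads were the denominator. Its direction was therefore not read against these markers. The muscle and erythroid genes were also taken out of the totals, a step chosen once the data had been seen. Mir378a was then 1.18-fold higher and Mir378c 2.11-fold higher in replicate 2. That step changes the totals alone, so the ratios of all remaining genes move by the same factor. It is no test of where the miR-378 reads came from. The part of muscle, blood, brown fat or liver in the miR-378 counts themselves was not tested. In bulk tissue, fewer cells of a type and less RNA per cell cannot be told apart. Of the gland's own markers, Mir375, known from neuroendocrine cells, was at 39421 and 37780 CPM and Mir7b at 3101 and 2146 CPM.

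By the distance of log2(CPM + 1) over the 2 libraries, the genes most like Mir378a in level were Mir126a (distance 0.19, 43203 and 59463 CPM), Mirlet7i (0.50, 41368 and 41663 CPM), Mir139 (0.65, 43281 and 36758 CPM) and Mir375 (0.66). Mir378a was above Mir126a in replicate 1 and below it in replicate 2, so these 2 could not be ordered. It was above Mirlet7i, Mir139 and Mir375 in both libraries, and its mean exceeded theirs by more than the SDs.

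Other microRNAs described in fat, lipid or mitochondrial regulation were read for comparison, from a list of 28 of which 27 were matched by name. All 27 were detected, and together they held 4.64% and 4.95% of the counts, close to the 4.88% and 5.67% of Mir378a alone. The most abundant was Mir143, a smooth muscle microRNA also linked to fat cell differentiation, at 22074 ± 1463 CPM (SD, n = 2), below Mir378a in each library and by more than their SDs. Mir27b followed with 4554 ± 1884 CPM, Mir122, which regulates lipid metabolism in liver, with 3040 ± 964 CPM, and Mir93 with 2807 ± 1069 CPM. Mir107, from an intron of a pantothenate kinase gene, had 2745 ± 1138 CPM and Mir455, known from brown fat, 2712 ± 265 CPM.

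Of these 27 genes, 3 were called as higher in replicate 2 and 1 as higher in replicate 1, against 8.67% and 10% of all tested genes. This split turned with the scaling, to 2 and 2 with TMM, 2 and 3 with median-of-ratios and 1 and 3 with all reads, where Mir494 (209 against 85 counts) and, in the last 2, Mir27b (16716 against 7345 counts) were also called as higher in replicate 1. Their median log2 ratio was 0.20, against 0.07 over all tested genes. Mir193b, a brown fat microRNA, was 2.01-fold higher in replicate 2 (1012 against 1636 counts), and Mir365-1 of the same cluster 2.24-fold (20 against 36 counts). Mir103-2, which like Mir107 lies in a pantothenate kinase gene, was 3.13-fold higher in replicate 2 (35 against 88 counts). Mir203, an epithelial microRNA, had a ratio of 0.475 (3312 against 1262 counts). Over a stretch of 27 bases the hairpin of Mir365-1 is identical to that of another gene, Mir365-2. Mir103-2 likewise has up to 27 bases in common with Mir103-1 or Mir107. Reads that fit both places are not in these counts. Of these 4, Mir103-2 and Mir203 were called under each of the other 3 scalings, whereas Mir193b was called under none of them.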

How the data were processed

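The values were counts per microRNA gene, deposited by the authors as 1 table per library, not normalized, with a column for reads on either strand, one for reads along the gene and one for reads against it. Per the deposited sample information, reads were placed on mm10 and counted over GENCODE M21. Aligner and counter are not given in the sources used here. All 2202 identifiers were matched to GENCODE M21. The column of reads along the gene was used, as the larger of the 2 single-strand columns.

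Gene counts totalled 2839732 in replicate 1 and 2280028 in replicate 2, 30.6% and 26.3% of all reads. The 4 rows that name no gene were left out. They held 29.8% and 39.7% unmapped reads, 28.8% and 25.3% reads aligned to several places, 10.8% and 8.60% reads outside the genes and, with strand, 8 and 0 reads in more than 1 gene. The 2 arms of a hairpin were counted together. Neither alleles of the hybrid strain nor the Ppargc1b transcript were analysed.

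Counts were scaled to 1000000 per library (CPM), and TMM factors came from edgeR 4.0.16. Intervals are exact (scipy 1.17.1), at 95%, and cover counting error only, since no molecular identifiers are stated. With 2 samples the smallest exact p over samples is 0.5, so none was run. The binomial test compares the libraries. It was tested on simulated data that held counting error alone, which does not cover other spread between libraries. Hairpins from GENCODE transcripts were folded with RNAfold 2.7.2. Genes named were the members, Gm25301, the 4 genes nearest to Mir378a in level, the 6 most abundant and all called genes of the fat list, up to 3 of each marker list and the 5 genes of highest mean count opposite another microRNA gene. Mir28a, Mir21a, Mir181d, Mirlet7g, Mir22, Mir494 and Mir223 were named after their values were seen. Mir696, Mir7a-1 and Mir7a-2 had no match by name and were not analysed here. Members and lists were chosen with earlier results of these data known.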

Additional observations from a re-analysis of the deposited data

Results flagged for a closer look

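Reads aligned to several places lie outside the gene counts and stood far above the 3 counts that a count of 0 allows. There were 2673681 of them in replicate 1, which is 94.2 per 100 gene counts, and 2193599 in replicate 2, which is 96.2 per 100. Their share from the 19 or 20 bases that Mir378a, Mir378b and Mir378c have in common was not tested. Groups of 2 samples are too small to single out a sample.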

How the results depend on the processing

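Scaling shifted all genes: the median log2 ratio was 0.07 with gene totals, -0.04 with TMM, -0.09 with median-of-ratios and -0.14 with all reads. Where it had counts, Mir378a kept its direction except with all reads (0.999), but its ratio was smaller with TMM (1.07) and with median-of-ratios (1.04). Mir378c was higher in replicate 2 throughout, but under 2-fold with TMM (1.93), median-of-ratios (1.86) and all reads (1.79). Over these 3 scalings its adjusted p was from 4.9e-06 to 4.8e-05 by the exact binomial test. Mir378d had adjusted p from 0.0168 to 0.197 over its alternatives by the same exact test, above 0.05 with those 3 scalings and with no filter on counts (0.0632). The 69 genes called, 32 of them higher in replicate 2, became 67 (25 higher) with TMM, 69 (24 higher) with median-of-ratios, 67 (19 higher) with all reads, 33 at a mean count of at least 100, where fewer genes were tested, and 231 with no minimum fold. Per 1000000 of all reads, a larger denominator by construction, Mir378a was at 14934, Mir378c at 12.5 and Mir378d at 8.23. Without strand Mir378a fell to 0 CPM, 0% of the family and rank 715. It ranked 3 by mean CPM, and 4 with either replicate left out. Mir378b, with 2 and 6 counts, is limited by depth. No paired analysis was possible because there is 1 group.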

Other observations

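Mir378a was not alone in losing its unstranded counts. Of 64 microRNA genes that overlap another on the opposite strand, 27 were detected on their own strand, and 25 of these kept at most 1% of their counts without strand in both libraries. Of the 27, 16 lie whole inside the gene on the other strand, as Mir378a does in Gm25301, and all 16 kept no count. For 21 of the 27 the gene on the other strand had exactly the same number of opposite-strand counts in both libraries.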
